A study of Mus musculus with 10 samples.

Results

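The vascular endothelial growth factor (VEGF) family was followed through 10 genes in mouse lung: the ligands Vegfa, Vegfb, Vegfc, Vegfd and Pgf, the receptors Kdr, Flt1 and Flt4, and the neuropilins Nrp1 and Nrp2. They were chosen by name, matched 10 Ensembl identifiers among the 53465 genes counted, and all 10 passed the low-count filter that left 15695 genes. IL-33 lungs are 5 lung samples of BALB/c mice given 1 µg of the cytokine in 35 µL through the nose on each of 5 days and sampled 24 hours after the last dose. Control lungs are 5 lung samples of BALB/c mice that the submitters call untreated; no vehicle is named for them, and the age and sex of either group are likewise unstated. PolyA-selected lung RNA was sequenced, with 7805175 to 13178798 reads counted in genes per IL-33 library and 8935159 to 13767118 per control library. Ager, a marker of alveolar type 1 cells that defines lung tissue, stood at 1161 ± 78.4 CPM in IL-33 lungs and 1714 ± 148 CPM in controls (SD, n = 5 each). CPM are reads of a gene relative to the TMM-scaled total of its library.

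VEGF-A is the principal growth and survival factor of blood vessel endothelium and acts through the receptor tyrosine kinase VEGFR2, made by Kdr. Flt1 makes VEGFR1, which binds VEGF-A tightly with weak kinase activity and also binds VEGF-B and placental growth factor (Pgf), while Flt4 makes VEGFR3, the receptor of VEGF-C and VEGF-D, best known for lymphatic growth. The neuropilins are co-receptors shared with the class 3 semaphorins. In mouse lung, alveolar type 1 cells are a known source of VEGF-A, and the Car4+ capillary cells (aerocytes) that face them carry much VEGFR2.

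Promoters are shown for Vegfa and its receptors Kdr and Flt1, 3 genes that were lower in IL-33 lungs. The sequences are the bases before the RefSeq start (for Vegfa the one nearest the GENCODE gene start), GRCm38.p6, on the strand of the gene, which is the minus strand for each: 250 bases for Vegfa (chr17:46032378-46032627) and Flt1 (chr5:147726012-147726261), and 247 for Kdr (chr5:75978459-75978705), where 3 bases lie in an annotated exon. Capitals mark GGAA on either strand (TTCC on the printed one), the core bound by ETS factors, a family with several endothelial regulators.
Vegfa: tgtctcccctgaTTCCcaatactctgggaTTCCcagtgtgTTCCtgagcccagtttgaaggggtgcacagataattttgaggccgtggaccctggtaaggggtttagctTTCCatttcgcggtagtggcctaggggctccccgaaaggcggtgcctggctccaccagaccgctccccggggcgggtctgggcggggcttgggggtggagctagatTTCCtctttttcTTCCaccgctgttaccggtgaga
Kdr: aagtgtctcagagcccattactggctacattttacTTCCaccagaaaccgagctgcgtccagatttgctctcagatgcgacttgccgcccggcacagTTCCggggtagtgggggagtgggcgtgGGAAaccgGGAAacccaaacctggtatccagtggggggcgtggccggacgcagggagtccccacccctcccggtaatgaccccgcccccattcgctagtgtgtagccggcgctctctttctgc
Flt1: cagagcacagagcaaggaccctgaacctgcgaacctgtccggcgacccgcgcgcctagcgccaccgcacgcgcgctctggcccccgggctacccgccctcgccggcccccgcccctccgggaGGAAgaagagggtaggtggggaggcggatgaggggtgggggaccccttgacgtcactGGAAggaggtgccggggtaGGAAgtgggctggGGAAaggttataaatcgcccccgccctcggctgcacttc
GGAA occurred 6 times in the Vegfa window, 4 times in Kdr and 4 times in Flt1. It was found in 93.4% of 32851 windows of 250 bases in the same table, and is thus a feature shared by most genes. TATAAA occurred in the Flt1 window, 31 bases before the start, and in 12.4% of all windows. GGGCGG, the GC box, occurred 2 times in Vegfa, 2 times in Kdr and 3 times in Flt1, and in 32.7% of all windows. GCGTG, a hypoxia element core, occurred 2 times in Kdr and once in Flt1 (28.2% of all windows), and its other form ACGTG in none of the 3 (16.6% of all windows). Both strands were searched for each, and matches of different motifs may share bases.

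Of the 10 genes, 6 were lower in IL-33 lungs, Pgf was higher, and Vegfb, Vegfc and Nrp2 did not pass the test (edgeR's quasi-likelihood test over all genes, Benjamini-Hochberg adjusted p at 0.05). Across all genes tested, 69.9% passed, 34.8% lower and 35.1% higher, so 7 calls among 10 genes were close to the share in the transcriptome, while 6 of 10 lower stood beside 34.8%. The same 7 genes had no overlap between the 5 IL-33 and the 5 control libraries, which held for 56.5% of all genes (27.4% with every IL-33 library lower, 29.1% with every one higher). The median log2 fold change, IL-33 over control, was -1.27 over the 10 genes and -0.01 over all genes. Levels in CPM are given for IL-33 libraries 1 to 5 and then control libraries 1 to 5, with mean ± SD of 5 libraries each. In lung homogenate, fewer cells of a type, less RNA per cell and a larger share of RNA from other cells cannot be told apart.

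**Figure D1:**
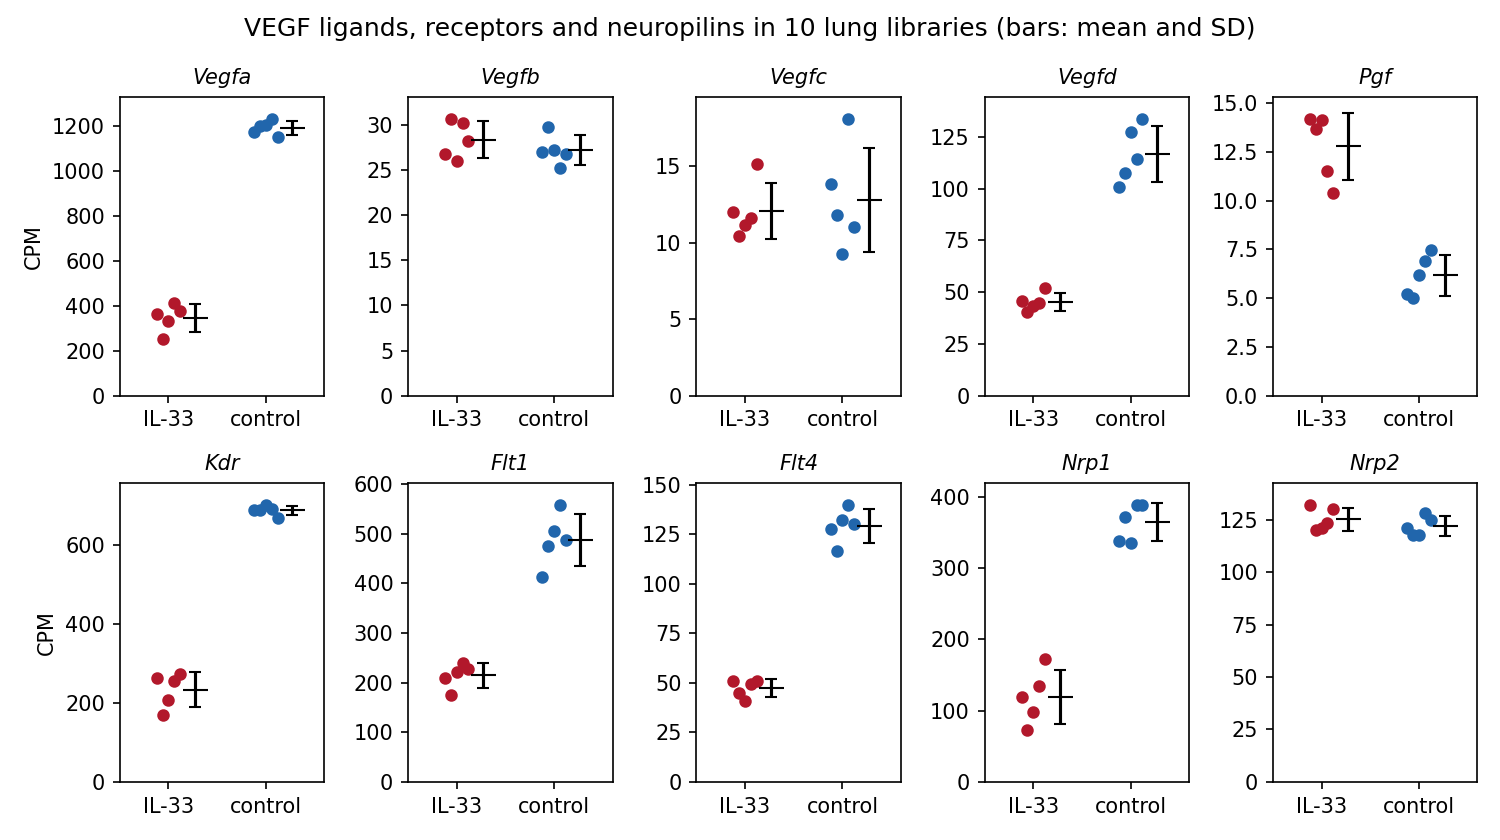
CPM of each gene (vertical axis, from 0) in the 5 IL-33 libraries (red) and the 5 control libraries (blue), with mean and SD in black. The groups are apart for Vegfa, Vegfd, Kdr, Flt1, Flt4 and Nrp1, which were lower, and for Pgf, which was higher, and overlap for Vegfb, Vegfc and Nrp2.

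Vegfa (ENSMUSG00000023951, chromosome 17, 46016993 to 46032369 in GRCm38, the build of all positions here) had 361, 250.1, 331, 412 and 375 CPM in IL-33 lungs, against 1170, 1199, 1203, 1231 and 1151 CPM in control lungs. Every IL-33 library lay below every control library, IL-33 library 2 lowest, and the controls lay close together. The means were 346 ± 61.0 CPM in IL-33 lungs and 1191 ± 30.7 CPM in controls, a log2 fold change of -1.78 ± 0.12 (SE) or 3.44-fold lower (adjusted p = 4.08e-08, edgeR). Only 7.92% of all tested genes had a larger change in either direction.

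Vegfd, a ligand of VEGFR3 (ENSMUSG00000031380, X chromosome, 164373378 to 164402650), had 45.7, 40.3, 43.3, 44.8 and 51.9 CPM in IL-33 lungs, against 100.9, 107.6, 127, 114 and 134 CPM in controls. No IL-33 library reached the lowest control. Vegfd fell by 1.36 ± 0.10 on the log2 scale (adjusted p = 5.66e-08, edgeR), to 45.2 ± 4.28 CPM in IL-33 lungs against 117 ± 13.6 CPM in controls.

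Pgf, placental growth factor (ENSMUSG00000004791, chromosome 12, 85166635 to 85177790), was the 1 gene of the family that rose. It had 14.2, 13.7, 14.1, 11.5 and 10.4 CPM in IL-33 lungs, against 5.23, 5.03, 6.19, 6.91 and 7.50 CPM in controls. All IL-33 libraries stood above all controls, at a log2 fold change of 1.04 ± 0.14 or 2.06-fold (adjusted p = 2.55e-05, edgeR). The change rests on 660 reads in IL-33 lungs and 333 in controls, with 46 in the library that held fewest, so its relative counting error is larger than for Vegfa, with 18722 reads in IL-33 lungs and 64414 in controls.

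Vegfb, another VEGFR1 ligand (ENSMUSG00000024962, chromosome 19, 6982473 to 6987651), had 26.8, 30.7, 25.9, 30.2 and 28.2 CPM in IL-33 lungs, against 26.99, 29.8, 27.3, 25.2 and 26.8 CPM in controls. The groups overlapped, with a log2 fold change of 0.06 ± 0.06 (adjusted p = 0.465, edgeR). Vegfc, the main lymphatic growth factor (ENSMUSG00000031520, chromosome 8, 54077606 to 54187096), had 12.04, 10.45, 11.2, 11.6 and 15.2 CPM in IL-33 lungs, against 13.9, 11.8, 9.23, 18.1 and 11.0 CPM in controls. Its controls spread widely, with control library 4 highest, and the log2 fold change was -0.08 ± 0.19 (adjusted p = 0.673, edgeR); without control library 4 it was 0.06 and not called.

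Among receptors, Kdr (ENSMUSG00000062960, chromosome 5, 75932827 to 75978458) had 264, 170.3, 209, 255 and 273 CPM in IL-33 lungs, against 688, 689, 702, 692 and 669 CPM in controls. The control values spanned a narrow range, with a coefficient of variation of 1.78%, against 18.5% in IL-33 lungs, where library 2 was lowest. Kdr was 2.94-fold lower, a log2 fold change of -1.55 ± 0.13 (adjusted p = 1.33e-07, edgeR).

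Flt1 (ENSMUSG00000029648, chromosome 5, 147561604 to 147726011) had 209, 175, 222, 241 and 228 CPM in IL-33 lungs, against 413, 475, 506, 558 and 487 CPM in controls. The groups did not overlap, and Flt1 fell by 1.18 ± 0.11 on the log2 scale (adjusted p = 3.60e-07, edgeR). Flt4 (ENSMUSG00000020357, chromosome 11, 49609263 to 49652739) had 50.8, 44.8, 41.0, 49.6 and 51.1 CPM in IL-33 lungs, against 128, 116, 132, 139.8 and 130.3 CPM in controls. No library of one group reached the other, and Flt4 fell by 1.44 ± 0.08 on the log2 scale (adjusted p = 9.01e-09, edgeR). The counts are per gene, so soluble and membrane forms of VEGFR1, and the splice forms of VEGF-A, are not separated.

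The neuropilins differed from each other. Nrp1 (ENSMUSG00000025810, chromosome 8, 128358604 to 128503363) had 119, 72.7, 98.2, 135 and 173 CPM in IL-33 lungs, against 338, 372, 335, 389 and 389 CPM in controls. It was lower in every IL-33 library and was the most variable of the 10 genes there, with a coefficient of variation of 31.7%, against 7.21% in controls. The log2 fold change was -1.60 ± 0.22 (adjusted p = 3.94e-06, edgeR). Nrp2 (ENSMUSG00000025969, chromosome 1, 62703285 to 62818695) had 132, 120.0, 121, 123 and 130.0 CPM in IL-33 lungs, against 121, 118, 118, 128 and 125 CPM in controls. The groups overlapped, with a log2 fold change of 0.04 ± 0.04 (adjusted p = 0.561, edgeR), and 95.6% of all genes had a larger change. IL-33 library 2 was the lowest of its group for 5 of the 6 genes called lower; leaving it out gave -1.68 for Vegfa and -1.47 for Nrp1 on the log2 scale, both called.

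Fold changes followed exon length over all tested genes, and the 10 genes span 1605 bases of exon (Vegfb) to 13504 (Flt1). The median log2 fold change was 0.72 among the 1569 genes with the least exon sequence (48 to 1527 bases) and -0.31 among the 1569 with the most (from 9592 bases). Once the dependence on exon length and GC was taken out of each library, the 7 calls kept their direction, with Vegfa at -1.83, Vegfd at -1.80, Nrp1 at -1.44, Kdr at -1.35, Flt4 at -1.17, Flt1 at -0.88 and Pgf at 0.84. The 3 genes that had not passed then passed in edgeR: Vegfb at -0.30 (adjusted p = 0.00122), Vegfc at -0.52 (adjusted p = 0.0213) and Nrp2 at 0.32 (adjusted p = 0.000361). With this correction 68.5% of all genes passed, 38.7% lower and 29.8% higher, and the median of all genes moved to -0.09. Statements that Vegfb, Vegfc or Nrp2 did or did not change therefore depend on this step.

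**Figure D2:**
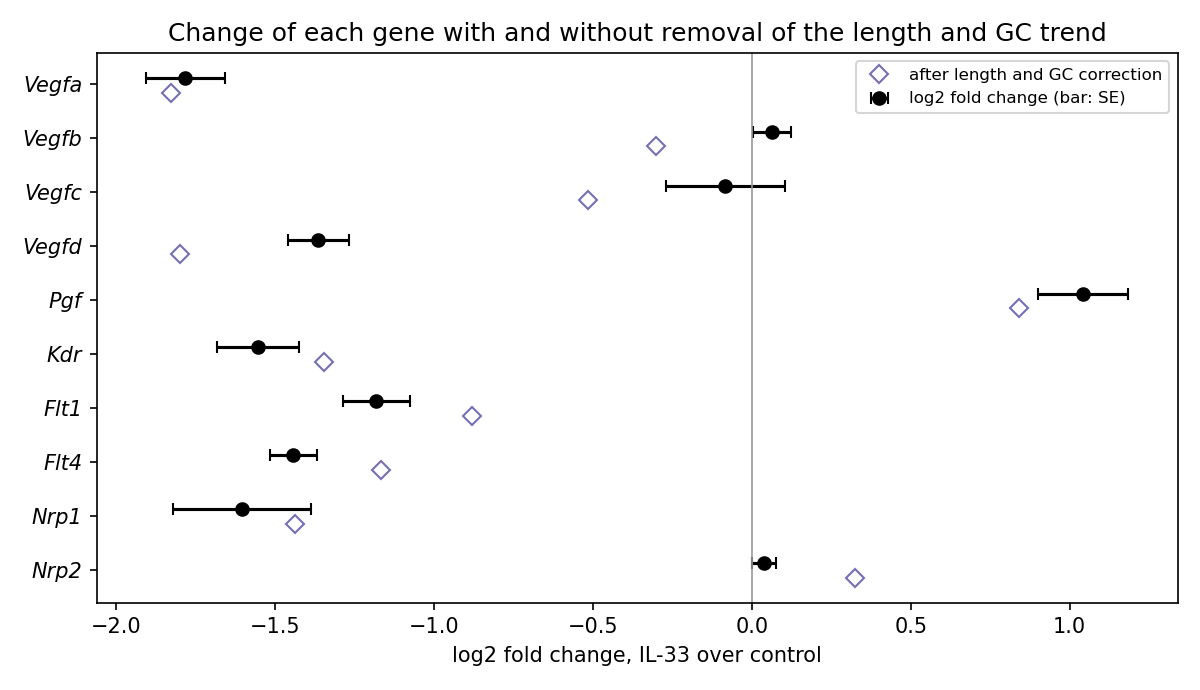
Log2 fold change of each gene, IL-33 over control (horizontal axis), with its SE from 5 and 5 libraries (black), and the value once the dependence on exon length and GC was taken out (open diamonds). Vegfb moves from 0.06 to -0.30, Vegfc from -0.08 to -0.52 and Nrp2 from 0.04 to 0.32, while the other 7 keep their direction.

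Per kilobase of exon, Vegfa was the most abundant of the family in both groups, at 80.7 ± 14.2 CPM per kilobase in IL-33 lungs and 278 ± 7.17 in controls. In IL-33 lungs Kdr (25.9), Vegfd (18.8), Vegfb (17.7), Flt1 (15.9), Nrp1 (12.2) and Nrp2 (10.6) followed, then Flt4 (5.76), Vegfc (4.93) and Pgf (4.41), in mean CPM per kilobase. Neighbours in that order overlapped in range except Vegfa with Kdr and Nrp2 with Flt4. In controls the order was Kdr (76.2), Vegfd (48.5), Nrp1 (37.2), Flt1 (36.1), Vegfb (16.9), Flt4 (15.7), Nrp2 (10.3), Vegfc (5.23) and Pgf (2.13), where only Nrp1 with Flt1 and Vegfb with Flt4 overlapped. Exonic length counts every annotated exon of a gene, so levels per kilobase of the transcripts in use would be higher.

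The make-up of the family's RNA shifted with the unequal changes. Vegfa held 63.4% ± 4.11 of ligand CPM per kilobase in IL-33 lungs and 79.3% ± 1.31 in controls (SD, n = 5 each). The share of Vegfb was 14.2% ± 2.44 in IL-33 lungs and 4.83% ± 0.341 in controls, and that of Pgf 3.56% ± 0.827 in IL-33 lungs and 0.606% ± 0.0992 in controls. The summed ligand level was 126 ± 15.3 CPM per kilobase in IL-33 lungs and 351 ± 8.06 in controls. Nrp2 made up 47.5% ± 7.38 of neuropilin RNA in IL-33 lungs and 21.7% ± 0.913 in controls.

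**Figure D3:**
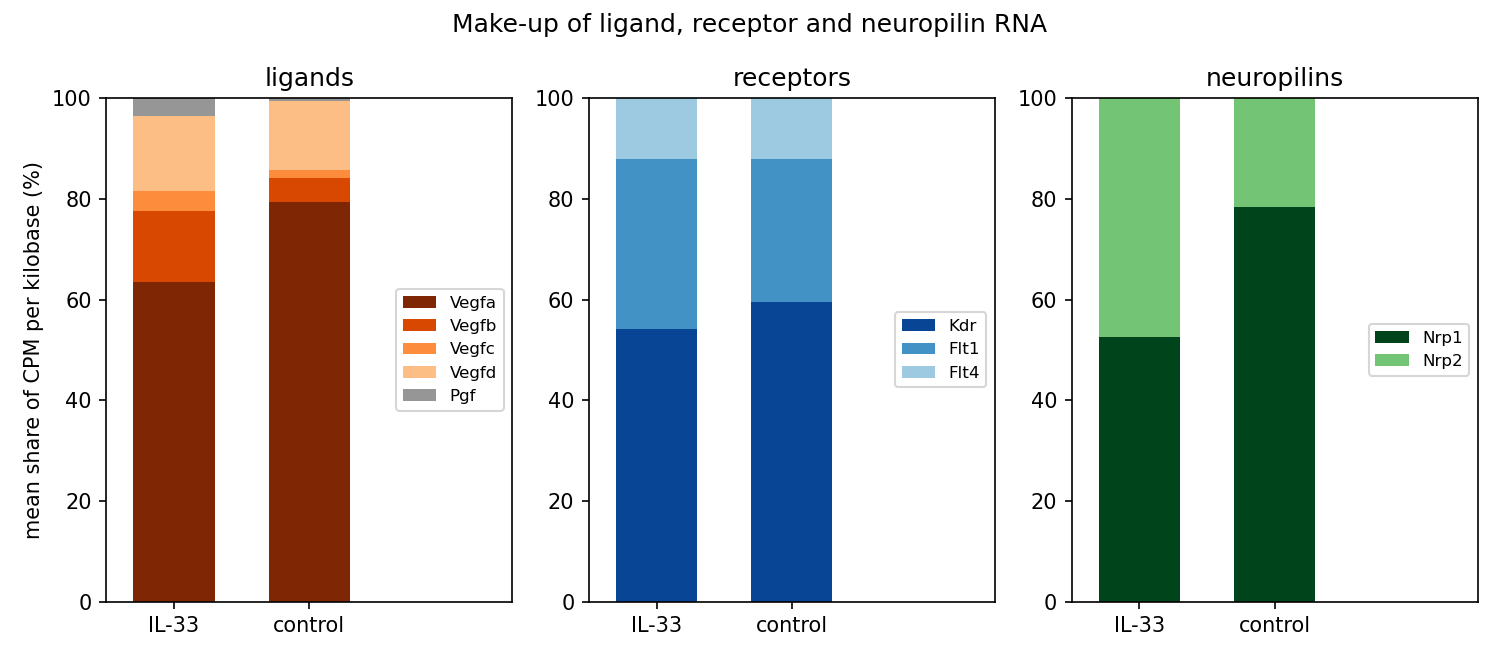
Mean share (vertical axis, percent of CPM per kilobase of exon) of each gene among the ligands, the receptors and the neuropilins in IL-33 and control libraries, 5 each. Vegfa takes 63.4% of ligand RNA in IL-33 lungs and 79.3% in controls, and Nrp1 takes 52.5% of neuropilin RNA in IL-33 lungs and 78.3% in controls.

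Ratios within a library do not depend on its scaling, and 12 were tested by exact permutation of the libraries (two-sided), with p adjusted over all 12. The smallest p that 5 against 5 libraries can give is 0.00794. The log2 ratio of Nrp2 to Nrp1 was 0.15, 0.72, 0.30, -0.13 and -0.41 in IL-33 lungs, against -1.48, -1.66, -1.51, -1.60 and -1.64 in controls. The groups were well apart, differing by 1.70 ± 0.20 (exact p = 0.00794, adjusted p = 0.00952), or 3.25-fold. The same p and adjusted p were reached by Pgf to Vegfa (2.85 ± 0.22 higher on the log2 scale in IL-33 lungs), Vegfb to Vegfa (1.86 ± 0.15 higher) and Vegfc to Vegfd (1.31 ± 0.21 higher). For each of these ratios, Nrp2 to Nrp1 included, this p was fixed in advance by the ranges of the single genes and adds no further evidence. Pgf was higher, and Vegfa lower, in every IL-33 library than in every control library. For the other ratios, the gap between groups in Nrp1, Vegfa or Vegfd was too wide for the values of Nrp2, Vegfb or Vegfc to close.

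Among the receptors, the log2 ratio of Flt1 to Kdr averaged -0.11 ± 0.18 in IL-33 lungs and -0.50 ± 0.16 in controls (SD, n = 5 each). The groups overlapped, from -0.34 to 0.09 in IL-33 lungs and from -0.74 to -0.31 in controls, and the difference of 0.39 ± 0.11 passed the exact permutation test (p = 0.0159, adjusted p = 0.0173). Flt4 to Kdr differed by 0.13 ± 0.10 (exact permutation p = 0.262, adjusted p = 0.262), and by 0.04 without IL-33 library 2. Flt1 therefore fell by less than Kdr, whereas a difference between Flt4 and Kdr was not shown; after the length and GC correction it was 0.20 and passed (adjusted p = 0.0173, exact permutation test).

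The receptors were set against 10 endothelial markers, of which 6 were lower, none higher and 4 not called (34.8% of all genes were lower and 35.1% higher), with a median log2 fold change of -0.50. The markers differed widely, from Cdh5, VE-cadherin, at -1.59 and Eng, endoglin, at -1.33 to Pecam1 at -0.61, and Cldn5, Emcn, Egfl7 and Ramp2 did not pass. After the length and GC correction 8 of the 10 were lower, beside 38.7% of all genes. Cldn5 was then at -0.50 and Ramp2 at -0.29 (adjusted p = 0.00137 and 0.0117, edgeR). Against the mean log2 CPM of the 10 markers, Kdr was lower by a log2 difference of -0.97 ± 0.10, Flt1 by -0.58 ± 0.10, Flt4 by -0.84 ± 0.06 and Nrp1 by -1.06 ± 0.20, and Nrp2 was higher by 0.64 ± 0.03 (exact permutation p = 0.00794 and adjusted p = 0.00952 for each). These differences depend on the marker: against Cdh5 alone, chosen after the data were seen, Kdr stood at 0.03 (adjusted p = 0.659), Flt4 at 0.16 (adjusted p = 0.106), Nrp1 at -0.06 (adjusted p = 0.659), Flt1 at 0.42 (adjusted p = 0.0198) and Nrp2 at 1.64 (adjusted p = 0.0198), by exact permutation. Against the 10 markers after the length and GC correction, Flt1 was at -0.19 and no longer passed (adjusted p = 0.0714, exact permutation), while Flt4 was at -0.47 and Nrp2 at 1.02. Against the median of the markers in place of their mean, Flt1 was at -0.92 and Nrp2 at 0.30.

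**Figure D4:**
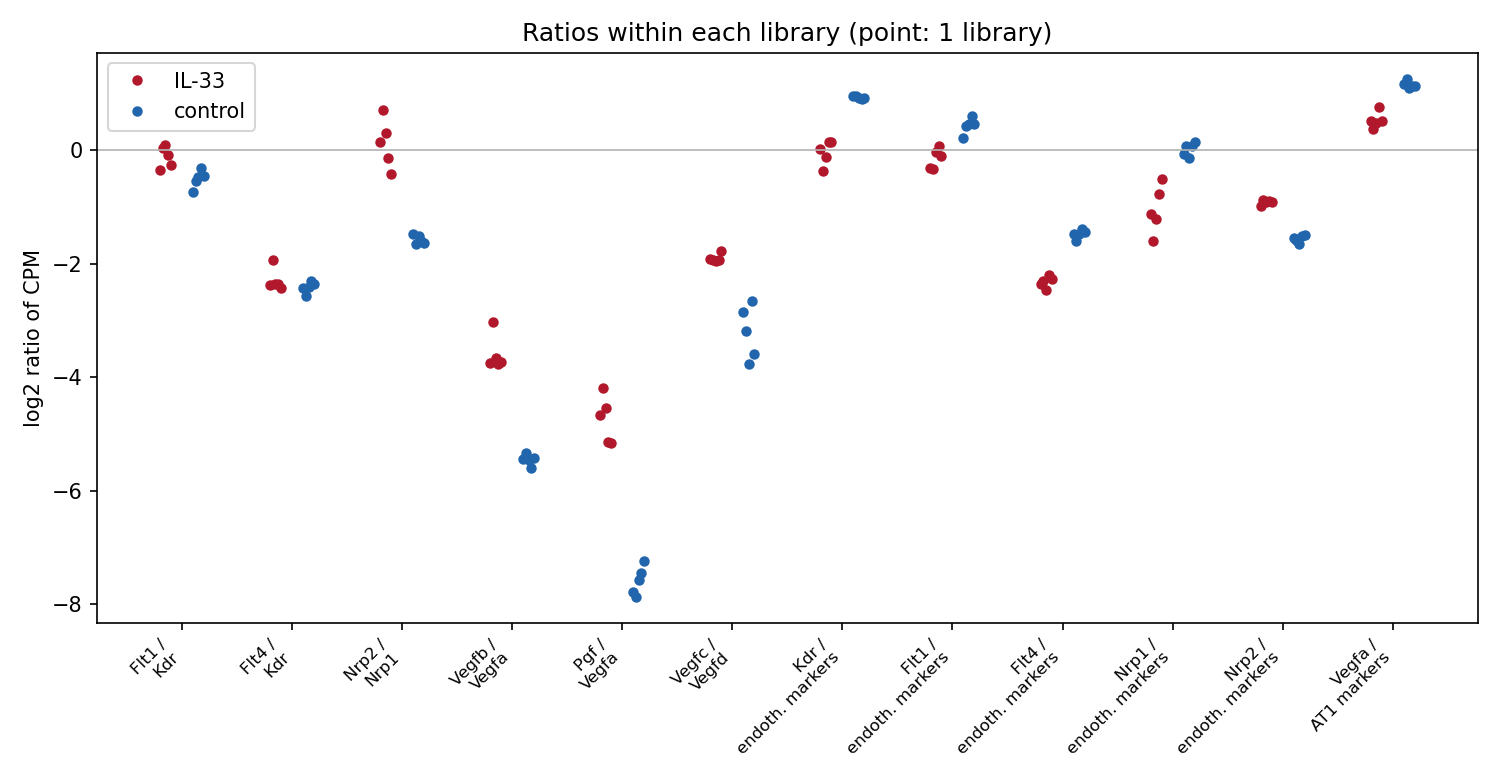
Log2 ratio of CPM (vertical axis) for the 12 ratios, 1 point per library, IL-33 in red and control in blue. The Nrp2 to Nrp1 ratio lies between -0.41 and 0.72 in IL-33 lungs and between -1.66 and -1.48 in controls, while Flt4 to Kdr overlaps.

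Markers of capillary cells were mostly lower. Of 8 aerocyte markers 7 were lower and none higher (median -1.13), beside 34.8% lower and 35.1% higher over all genes, led by Ednrb, the endothelin B receptor, at -1.59, and Emp2, the most abundant, at -1.42. Of 8 general capillary markers 6 were lower and none higher (median -0.68), among them Aplnr, the apelin receptor, at -1.27, and Sema3c at -1.26, while Plvap, the most abundant over all libraries (in controls Cd93 was higher), fell by 0.26 on the log2 scale. Summed aerocyte marker levels were 1193 to 1533 CPM in IL-33 libraries and 2892 to 3224 CPM in controls. A large part of this sum was Emp2, with means of 579 CPM in IL-33 lungs and 1547 CPM in controls. Summed general capillary markers were 1502 to 1949 CPM in IL-33 libraries and 2668 to 3233 CPM in controls. Car4, which gives the aerocytes their other name, was at 0.10 and not called, and Hilpda and Lpl of the general capillary list were not called either. After the length and GC correction Car4 was at -0.41 and lower (adjusted p = 0.00375, edgeR). With that correction 8 of 8 aerocyte markers and 7 of 8 general capillary markers were lower, beside 38.7% of all genes. The summed endothelial markers ran from 2788 to 3311 CPM in IL-33 libraries and from 4941 to 5425 CPM in controls. The part of capillary cells in the values of Kdr, Flt1, Flt4 and Nrp1 was not tested.

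All 10 alveolar type 1 cell markers were lower (median -1.16), beside 34.8% of all genes, with Clic5 at -1.79, Akap5 at -1.64 and Ager, the most abundant of them, at -0.56. Their summed level was 2897 to 3784 CPM in IL-33 libraries and 6866 to 7805 CPM in controls. Set against the mean of these markers, Vegfa was lower by a log2 difference of -0.62 ± 0.07, with ratios of 0.38 to 0.77 in IL-33 lungs and 1.10 to 1.26 in controls (exact permutation p = 0.00794, adjusted p = 0.00952). Vegfa, at -1.78 ± 0.12, thus fell by more than the mean of the list, and about as much as Clic5 (-1.79 ± 0.17). The other markers of the list fell by less than Vegfa. After the length and GC correction Vegfa was at -1.83 and Clic5 at -1.63. Which cells held Vegfa was not tested.

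Markers of other cell types are read beside the same 34.8% lower and 35.1% higher. Of 10 macrophage markers 9 were higher and 1 lower (median 1.33), with the complement genes C1qb at 2.95 and C1qa at 2.89 and Csf1r, the most abundant over all libraries (in IL-33 lungs C1qa was higher), at 0.48, and their sum was 937 to 1387 CPM in IL-33 libraries and 393 to 420.2 CPM in controls. Of 10 fibroblast and pericyte markers 3 were higher and 7 lower (median -0.76), with Rgs5 at 2.07, Pdgfra at -1.36 and Col1a2, the most abundant, at 0.81, and their sum was 2561 to 3465 CPM in IL-33 libraries and 2538 to 2916 CPM in controls. Of 10 lymphatic markers 9 were tested, 2 higher, 3 lower and 4 not called (median -0.14), shares not above those of all genes. Thy1 (2.06), which T cells and fibroblasts also express, and Maf (1.12) rose, and Mmrn1 (-1.29), Lyve1 (-0.67), the most abundant and also expressed by macrophages, and Reln (-0.45, adjusted p = 0.0488 in edgeR) fell, Reln with no call after the length and GC correction (-0.09, adjusted p = 0.669). Prox1, the defining lymphatic transcription factor, was at -0.14 and not called, and Ccl21a had 1 read in IL-33 libraries and 0 in controls. The lymphatic sum overlapped, at 540 to 648 CPM in IL-33 libraries and 512 to 826 CPM in controls. Its largest part was Lyve1, with means of 246 CPM in IL-33 lungs and 391 CPM in controls. Prox1 had 3.67 CPM in IL-33 lungs and 4.07 CPM in controls, so the sum hardly reflects it. The part of these cells in the values of Flt4, Vegfc, Vegfd, Nrp2 and Pgf was not tested.

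Genes that act with the VEGF family were read from lists, each beside 34.8% lower, 35.1% higher and a median of -0.01 over all genes. Sema3c, Sema3d, Apln, Angpt2 and Tie1 each stand on more than a single pathway or marker list. The counts and medians of those lists are thus not fully separate. Of 12 class 3 semaphorins and plexins, families that hold the other partners of neuropilins, 10 fell and none rose (median -1.17). Sema3e, which signals through Plxnd1, had 42.5 ± 6.53 CPM in IL-33 lungs and 148 ± 11.5 CPM in controls. Sema3a, the classical Nrp1 ligand, had 22.9 ± 3.16 CPM in IL-33 lungs and 72.0 ± 5.92 CPM in controls, and Sema3c, the most abundant over all libraries though below Plxnd1 and Sema3g in IL-33 lungs, 178 ± 37.0 CPM in IL-33 lungs and 428 ± 65.9 CPM in controls. Sema3d (-0.30) and Plxnd1 (-0.24) did not pass. Log2 changes of genes named here and in the other pathway lists passed edgeR's test unless said otherwise, the largest adjusted p being 0.0255 (Rcan1).

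Of 20 genes of receptor signalling and trafficking, 3 rose and 11 fell (median -0.39). The rises were led by Sh2d2a, an adaptor of VEGFR2 that T cells also express, at 3.57, and Prkcb, a protein kinase C of B cells and myeloid cells as well, at 2.04. Ptprb, the endothelial phosphatase that restrains VEGFR2 and TIE2, had 410.1 ± 89.6 CPM in IL-33 lungs and 1119 ± 125 CPM in controls. Of 12 VEGF-induced and tip cell genes 3 rose and 6 fell (median -0.29). The 3 that rose were Egr3 at 1.35, Cxcr4 at 0.89 and Rcan1 at 0.30. Among those that fell, Esm1, endocan, had 3.07 ± 0.856 CPM in IL-33 lungs and 36.4 ± 16.8 CPM in controls. Dll4, the Notch ligand of tip cells, was at -1.75, and Adamts1, the most abundant over all libraries though below Cxcr4 and Nr4a1 in IL-33 lungs, fell by 0.996 on the log2 scale. Of these 12 genes, 1 rose (Egr3) and 7 fell once exon length and GC were corrected for, beside 29.8% higher and 38.7% lower over all genes. Of 6 angiopoietin and TIE genes 5 fell and none rose (median -0.58), Angpt1 at -1.78 and its receptor Tek at -1.47.

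Of 10 hypoxia pathway regulators, which set Vegfa transcription in many cells, 3 rose and 5 fell (median -0.12). Epas1, the oxygen-regulated factor HIF-2 alpha of endothelium, had 1719 ± 322 CPM in IL-33 lungs and 4226 ± 425 CPM in controls, while Egln3, an oxygen-sensing hydroxylase, had 32.4 ± 3.63 CPM in IL-33 lungs and 4.56 ± 1.92 CPM in controls. Hif1a, at -0.01, was not called. Of 8 tested genes linked to processing of VEGF-C and VEGF-D 4 rose and 4 fell. Their median was 0.10 with Klk4, which had no control reads, and -0.18 over the other 7. With 4 genes on each side, leaving out any 1 of those that rose turns the sign of the median. Adamts3, a protease of pro-VEGF-C, had 0.426 ± 0.364 CPM in IL-33 lungs and 2.18 ± 0.565 CPM in controls, and Ctsd, cathepsin D, was at 0.93. Klk4 had 148 reads in IL-33 lungs and 0 in controls, at least 49.9-fold higher if 3 reads are taken as the limit for the control group as a whole, and Plg was not tested.

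**Figure D5:**
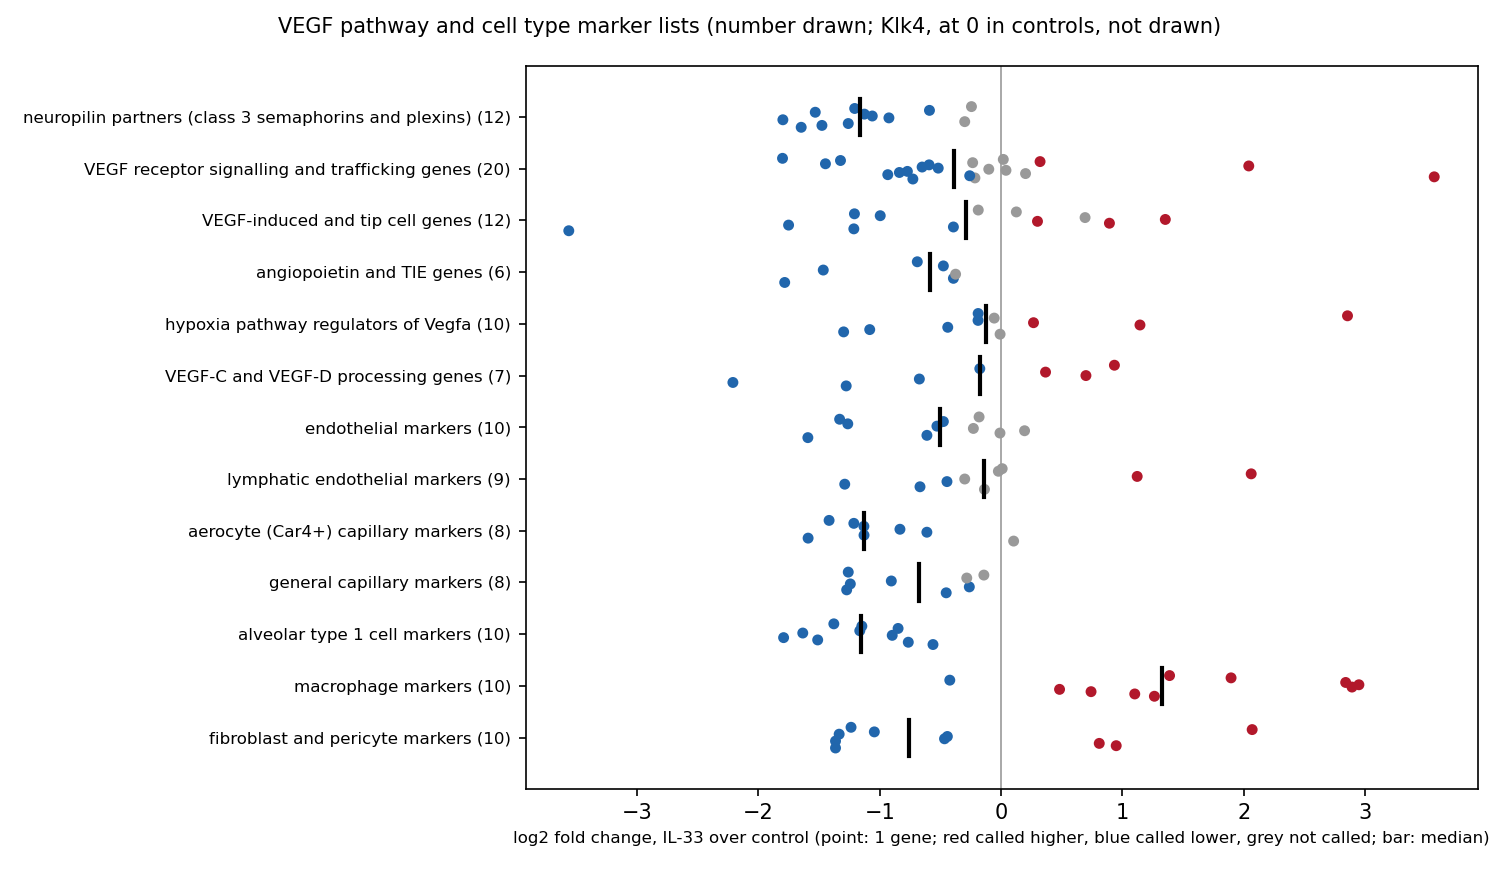
Log2 fold change, IL-33 over control (horizontal axis), of the tested genes of 13 lists (Klk4 left out, which gives its list the median of -0.18), coloured red if called higher, blue if called lower and grey if not called, with the median of each list as a bar. Neuropilin partners, aerocyte and alveolar type 1 markers lie to the left, with medians of -1.17, -1.13 and -1.16, and macrophage markers to the right at 1.33.

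The genes whose levels ran most closely with each member were ranked by the root mean square difference of log2 CPM, each centred on its own mean, over the 10 libraries and among 13957 genes. Kdr lay nearest to Ednrb (0.0605 log2 units), Cttnbp2nl (0.0621) and Col4a4 (0.0673). Vegfa lay nearest to Efnb2 (0.104), Zfp37 (0.107) and Cx3cl1 (0.108), and Vegfd to Ace (0.0767), Col23a1 (0.0808) and Smurf2 (0.0818). Flt4 lay nearest to Scnn1b (0.0698), Pdgfrb (0.0848) and Rftn2 (0.0913), Flt1 to Chmp4c (0.0713), Pxdc1 (0.0793) and Epb41l2 (0.0825), and Nrp1 to Colgalt2 (0.102), Pdgfd (0.105) and Cyyr1 (0.105). Pgf lay nearest to Rpp25l (0.0982), Galnt7 (0.12) and Mcm4 (0.125), and Nrp2 to Exoc1 (0.0444), Atg7 (0.0453) and Dgkd (0.0458). For Vegfb they were Pla2g6 (0.0491), Atp6v0a2 (0.0528) and Poldip3 (0.0636), and for Vegfc Zfp709 (0.152), Frk (0.167) and Eif2ak2 (0.167). The 10 libraries form 2 groups, so genes with a like difference between groups rank near each other by construction.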

How the data were processed

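Each of the 10 lung libraries has deposited raw counts of reads per Ensembl gene, which the authors did not normalize. The submitters' processing notes name FastQC 0.11.6, MultiQC 1.6, STAR 2.5.4b, HTSeq 0.9.1 and GRCm38; the annotation release and the strand setting used in counting are unknown from these sources. The library kit keeps strand and RNA was polyA-selected, per the labels' protocols. Records outside genes were dropped before any step. Reads in no gene were 11.4% to 13.7% of records in IL-33 libraries and 10.4% to 11.1% in controls. Ambiguous reads were 0.86% to 0.95% over all libraries. Multiply aligned reads were 20.0% to 22.8% in IL-33 libraries and 15.0% to 16.2% in controls. The shares in no gene and multiply aligned were thus higher in every IL-33 library than in every control. The cause of this difference was not tested. No 2 libraries of a group agreed within sampling noise (chi-square per degree of freedom 5.44 to 30.0).

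Symbols, positions and exonic lengths came from GENCODE M21 (GRCm38); 53274 of 53465 identifiers had a symbol. At most 0.073% of a member's 75-base windows occur in another gene. Of the exons of the 10 genes, those of Nrp1 overlap another gene (Mir1903) over 80 bases, and no other gene's do.

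IL-33 was compared with control in edgeR 4.0.16 under R 4.3.3, using the quasi-likelihood test on 10 libraries after filterByExpr. TMM factors were 0.969 to 1.03, no covariate was added, and p was adjusted over all genes at 0.05. Called genes passed that threshold. SEs were computed from the libraries' log2(CPM + 0.1), 5 in each group. The labels number replicates without naming animals, so p-values measure the spread between these libraries. Ratios were tested by exact permutation in Python 3.11.15.

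The members, the lists and the marker sets were chosen with earlier results of these data known. Genes named were all members, from each list the most abundant gene over all libraries and the 2 called genes (mean of 1 CPM or above) that changed most, and the 3 genes nearest to each member; other list genes were chosen after their values were seen. Alternatives were DESeq2 1.42.0, limma-voom 3.58.1, other normalizations and filters, an adjusted p of 0.01, the replicate number as a block, the length and GC correction (natural splines, 4 degrees of freedom each), other pseudocounts and marker summaries, and leaving out each library.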

Additional observations from a re-analysis of the deposited data

Results flagged for a closer look

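Of 114 groups of 5 values examined (the 10 genes, the named list genes and the 12 ratios), 4 held a library whose gap to the nearest other exceeded the Dixon limit of 0.71 of the range, and chance gives such a gap in about 5% of groups. In 3 of them the library was IL-33 library 2. Its log2 ratio of Flt4 to Kdr was -1.93, against -2.42 to -2.35 in the other IL-33 libraries (without it the difference from controls was 0.04 in place of 0.13), and its log2 ratio of Vegfb to Vegfa was -3.02, against -3.77 to -3.67. Its Emp2 level, an aerocyte marker, was 418 CPM, against 581 to 646 CPM in the other IL-33 libraries. IL-33 library 5 had a log2 ratio of Vegfc to Vegfd of -1.77, against -1.95 to -1.92 in the other IL-33 libraries.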

How the results depend on the processing

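Of 200 recomputed log2 fold changes of the 10 genes, 193 kept their direction and their side of the threshold. The exceptions came from the length and GC correction, which gave 2 genes higher instead of 1 (also 2 together with the replicate block), and turned Vegfb to -0.30 (-0.30 with the block too), and from leaving out control library 4, which turned Vegfc to 0.064. Leaving out each library in turn kept 7 genes called, 1 higher and 6 lower, and 101 to 107 list genes called. With all libraries 104 of 128 tested list genes were called (81.2%), beside 69.9% of all genes.

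The replicate numbers are not stated to pair libraries: deviations of same-numbered libraries correlated at -0.0692 to 0.231, and 3 of 5 IL-33 libraries matched their own number best. As a block the number left 7 genes called. For ratios, permutation within the 5 pairs cannot give a p below 0.0625, so none of the 11 ratios that passed could pass with the replicate block (adjusted p = 0.0682), while the differences, which pairing cannot change in a balanced design, are 0.39 for Flt1 to Kdr, 1.70 for Nrp2 to Nrp1, 1.86 for Vegfb to Vegfa, 2.85 for Pgf to Vegfa and 1.31 for Vegfc to Vegfd, and against their markers -0.97 for Kdr, -0.58 for Flt1, -0.84 for Flt4, -1.06 for Nrp1, 0.64 for Nrp2 and -0.62 for Vegfa. The length and GC correction gave 0.20 for Flt4 to Kdr, which passed, and -0.19 for Flt1 against endothelial markers, which did not. Cdh5 alone in place of the list gave 0.0285 for Kdr, 0.421 for Flt1, 0.158 for Flt4 and -0.0600 for Nrp1. The cause of these shifts was not tested. Low counts limit Pgf and Vegfc most.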
